A study of Homo sapiens with 2 samples.

Results

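The BCL2 family controls the mitochondrial route of apoptosis, and 10 of its genes were taken by name from a table of long-read transcript counts: BCL2, BCL2L1, MCL1, BCL2A1, BAX, BAK1, BCL2L11, BID, BBC3 and PMAIP1. All 10 were found among the 16645 annotated genes with a read. Together they held 157 of the 237608 transcript models, with 1192 of the 1360368 reads of replicate 1 (0.0876%) and 1306 of the 1510998 reads of replicate 2 (0.0864%). The reads came from GM12878, an established human B-lymphoblastoid line that was transformed with Epstein-Barr virus. Its RNA was read directly on a nanopore, without PCR copies, in 2 replicate libraries of 1 group, with no treatment named in the labels. The labels name 1 cell line and do not say whether the replicates came from separate cultures, so every test below compares the reads of the 2 libraries and not conditions.

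Pro-survival proteins of the family (BCL2, BCL2L1, MCL1 and BCL2A1) bind and hold their pro-apoptotic relatives. The effectors BAX and BAK1 can assemble in the outer mitochondrial membrane and release cytochrome c, which starts the caspase cascade. BH3-only proteins (BCL2L11, also called BIM, BID, BBC3, also called PUMA, and PMAIP1, also called NOXA) sense stress and engage the other members. In B cells transformed by Epstein-Barr virus the family is known as a control point of survival, and BCL2A1 and MCL1 are known for short-lived proteins whose supply depends on continued expression.

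Alternative splicing decides the function of several of these genes, and the exon boundaries at which the annotated forms part are shown for the models whose reads are compared further on. Each sequence has 15 bases on either side of an exon boundary of a GENCODE release 29 model, on the strand of the gene (GRCh38), within the coding sequence. Lower case is the exon before the boundary and capitals are what follows it. BAX-202 codes for the usual form of 192 codons, while BAX-201 keeps the 617 bases of the last intron and reads on into it, with 218 codons in all. BCL2L1-203 codes for the long, pro-survival form (BCL-XL, 233 codons) and BCL2L1-202 for the short form (BCL-XS, 170 codons), which uses a donor 189 bases upstream. BCL2A1-202 has an extra exon of 56 bases and 163 codons in place of 175. MCL1-202 (350 codons) includes the second exon of 248 bases that MCL1-201 (271 codons) skips. BCL2-202 (239 codons) is spliced and BCL2-203 (205 codons) reads through the donor.
BCL2A1-201 (chromosome 15, minus strand, 79970700 to 79961174): caaaacggaggctggGAAAATGGCTTTGTA
BCL2A1-202 (chromosome 15, minus strand, 79970700 to 79967692): caaaacggaggctggGGGAAATGGCACAAT
BAX-202 (chromosome 19, plus strand, 48960914 to 48961532): gaccagggtggttggGACGGCCTCCTCTCC
BAX-201 (chromosome 19, plus strand, 48960914 to 48960915): gaccagggtggttggGTGAGACTCCTCAAG
BCL2L1-203 (chromosome 20, minus strand, 31721655 to 31666086): gagaacggcggctggGATACTTTTGTGGAA
BCL2L1-202 (chromosome 20, minus strand, 31721844 to 31666086): cagagctttgaacagGATACTTTTGTGGAA
MCL1-202, into the second exon (chromosome 1, minus strand, 150578843 to 150578491): agacggccttccaagGCATGCTTCGGAAAC
MCL1-202, out of the second exon (chromosome 1, minus strand, 150578244 to 150577491): aaacaaagaggctggGATGGGTTTGTGGAG
MCL1-201 (chromosome 1, minus strand, 150578843 to 150577491): agacggccttccaagGATGGGTTTGTGGAG
BCL2-202 (chromosome 18, minus strand, 63318082 to 63128759): gataacggaggctggGATGCCTTTGTGGAA
BCL2-203 (chromosome 18, minus strand, 63318082 to 63318081): gataacggaggctggGTAGGTGCACTTGGT
BAK1-202 (chromosome 6, minus strand, 33574034 to 33573907): cagaggggtggctggGTGGCAGCCCTGAAC

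The last spliced coding junctions of the multi-domain members look alike. In BCL2-202, BCL2L1-203, BCL2A1-201, MCL1-202, BAX-202 and BAK1-202, all 6 windows have GGNTGG directly before the junction, read on the strand of the transcript. The same letters stood before 209 of 197242 coding junctions of GENCODE basic protein-coding transcripts (0.106%). This motif was chosen after the windows had been seen. The windows of BCL2 and BCL2L1 were identical at 26 of 30 bases, the closest of the 15 pairs, and the pairs ranged from 13 to 26 identical bases with a median of 16.

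The labelled cell type was checked against markers. All 10 B cell markers had reads in both libraries, with summed levels of 12655 and 12573 CPM (reads per 1000000 reads of the library), and CD74 led them at 7927 CPM ± 228 (SD, n = 2). The 5 T cell markers summed to 5.88 and 17.2 CPM, the 5 myeloid markers to 2.94 and 5.29 CPM, the 5 erythroid markers to 0.735 and 0 CPM, and the 5 genes of other lineages to 1.47 and 2.65 CPM. CD3D, CD3G, CD8A, LYZ, S100A8, S100A9, HBB, GATA1, ALB and EPCAM had 0 reads, where a count of 0 leaves room for 2.21 CPM in the first library and 1.99 CPM in the second. CD3E, a T cell marker, had 5 and 16 reads, and 4 of the 10 B cell markers passed the test between the libraries that is described below, 2 in each direction, beside 5.05% of all genes tested. The log2 ratios of replicate 2 to replicate 1 were 0.06 in CD74, 0.99 in CR2, -0.21 in HLA-DRA and -0.20 in FCER2. The part of these differences in the members' results was not tested.

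Among the pro-survival genes, BCL2A1 led and BCL2 itself was the lowest. BCL2A1 (ENSG00000140379, chromosome 15, 79960889 to 79971446, minus strand) had 360 reads in replicate 1 and 467 in replicate 2. These are 265 CPM (95% exact Poisson interval 238 to 293) and 309 CPM (282 to 338), a mean of 287 CPM ± 31.4 (SD, n = 2), which placed the gene at rank 454 of all annotated genes. One read stands for 1 RNA strand here, so levels are not divided by transcript length, and they are levels of the bulk culture, in which fewer cells with a transcript and fewer transcripts per cell cannot be told apart. MCL1 (ENSG00000143384, chromosome 1, 150574551 to 150579738, minus strand) had 172 and 154 reads, or 126 and 102 CPM. BCL2L1 (ENSG00000171552, chromosome 20, 31664452 to 31723989, minus strand) had 99 and 93 reads, or 72.8 and 61.5 CPM. BCL2 (ENSG00000171791, chromosome 18, 63123346 to 63320128, minus strand), the founding member, had 36 and 48 reads, or 26.5 and 31.8 CPM. The libraries of these 4 genes did not overlap between one gene and the next in this order. The order depends on genomic models, a class of models explained below. With them left out, BCL2A1 still led at 330 CPM, while MCL1 averaged 6.56 and BCL2 9.21 CPM. On its 14 and 2 remaining reads MCL1 overlapped with BCL2 over the libraries, so their order is then not resolved. With known models only, MCL1 averaged 10.6 and BCL2 9.85 CPM.

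Both effectors were read, BAX at the higher level. BAX (ENSG00000087088, chromosome 19, 48954815 to 48961798, plus strand) had 220 and 180 reads, or 162 and 119 CPM, which average 140 CPM ± 30.1 (SD, n = 2). BAK1 (ENSG00000030110, chromosome 6, 33572547 to 33580293, minus strand) had 77 and 63 reads, or 56.6 and 41.7 CPM. Replicate 1 was the higher library for each of them, and the lowest BAX value lay above the highest BAK1 value.

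The BH3-only genes spread most widely. BID (ENSG00000015475, chromosome 22, 17734138 to 17774770, minus strand), which is activated when caspase-8 cleaves its protein, had 164 and 136 reads, or 121 and 90.0 CPM. PMAIP1 (ENSG00000141682, chromosome 18, 59899948 to 59904306, plus strand), whose protein pairs with MCL1, had 43 reads in replicate 1 and 125 in replicate 2, or 31.6 and 82.7 CPM. BBC3 (ENSG00000105327, chromosome 19, 47220822 to 47232766, minus strand), a target of p53, had 17 and 39 reads, or 12.5 and 25.8 CPM. BCL2L11 (ENSG00000153094, chromosome 2, 111119378 to 111168447, plus strand) had 4 and 1 reads, or 2.94 and 0.662 CPM, close to the level that a count of 0 allows. Replicate 2 was high for PMAIP1 and BBC3 and low for BID, and the values of these 4 genes did not overlap with each other.

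**Figure D1:**
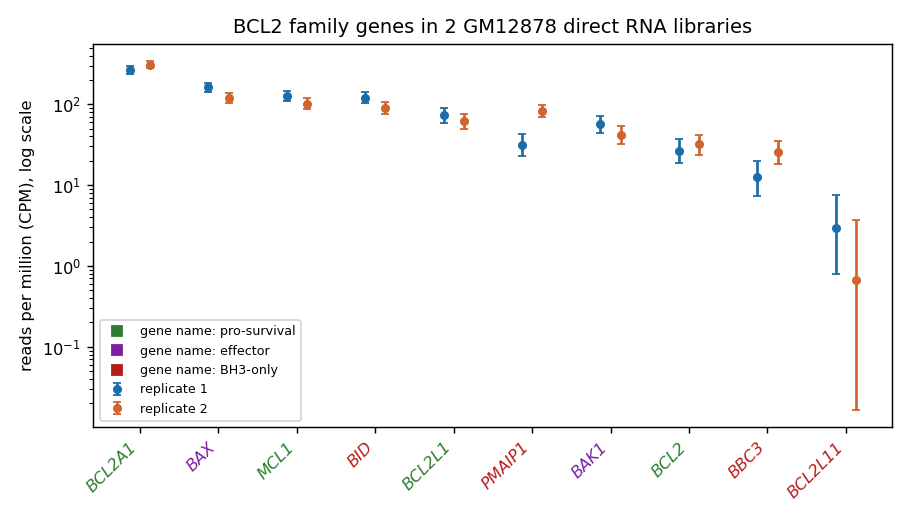
Level in CPM (log axis) of the 10 genes, ordered by their mean, with 1 point per library and 95% exact Poisson intervals of the counting error; gene names are coloured by role. BCL2A1 is highest at 265 and 309 CPM, BCL2L11 is lowest with 4 and 1 reads, and PMAIP1 has 31.6 and 82.7 CPM, the widest gap among the 9 genes with at least 10 reads.

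Ordered by mean level, the family ran BCL2A1, BAX, MCL1, BID, BCL2L1, PMAIP1, BAK1, BCL2, BBC3 and BCL2L11. BCL2A1 stood 2.04 times above BAX, and the values of these neighbours did not overlap. BAX and MCL1 overlapped over the libraries, as did MCL1 and BID, so the order within this trio is not resolved. PMAIP1 overlapped with both of its neighbours, BCL2L1 and BAK1. BCL2 and BBC3 did not overlap over the libraries (26.5 to 31.8 against 12.5 to 25.8 CPM), but their counting intervals did in each library. Dividing each level by the length of the longest known model with a read moved 6 of the 9 genes that have one; BCL2A1 at 278 and BAX at 103 CPM per kb stayed first and second, PMAIP1 stood at place 4 and BCL2 at place 9.

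By role, the 4 pro-survival genes held most of the family's reads. Their share was 56.0% in replicate 1 (95% Wilson interval 53.1 to 58.8%) and 58.3% in replicate 2 (55.7 to 61.0%), which average 57.2% ± 1.69 (SD, n = 2). The 2 effectors held 24.9% (22.5 to 27.4%) and 18.6% (16.6 to 20.8%). The 4 BH3-only genes held 19.1% (16.995 to 21.5%) and 23.0% (20.8 to 25.4%). The effector and BH3-only shares changed places between the libraries, so their order is within the spread between replicates, while the pro-survival share was the highest in each. BCL2A1 alone supplied 360 of the 667 pro-survival reads in replicate 1 and 467 of 762 in replicate 2. Further family genes, described below, are not part of these shares. Counts of RNA strands say nothing of the amounts of protein.

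Between the libraries, PMAIP1 was the member that changed. Its CPM in replicate 2 was 2.62 times that in replicate 1, a log2 ratio of 1.38 (95% exact interval 0.88 to 1.92) with an adjusted p of 1.09e-06 in the exact binomial test. Of the 9 members with at least 10 reads, 1 passed an adjusted p of 0.05, against 5.05% of the 10634 genes tested. It was higher in replicate 2, as were 2.72% of all genes, while 0 members and 2.33% of all genes passed as lower; at an unadjusted p under 0.05 there were 5 of the 9 members and 15.8% of all genes. The test allows for counting error alone, while the chi-square between the libraries averaged 3.27 per gene over the same 10634 genes. When genomic models, the category explained below, were left out, PMAIP1 had 10 and 24 reads, a log2 ratio of 1.14 and an adjusted p of 0.170 (exact binomial test).

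BAX lay just outside the threshold, with a log2 ratio of -0.44 (-0.73 to -0.15) and an adjusted p of 0.0511 (exact binomial test). With TMM factors the adjusted p of BAX was 0.0397, with DESeq2 size factors 0.0395, and among genes with at least 50 reads 0.0328. BBC3 had a log2 ratio of 1.02 (0.19 to 1.96) on 56 reads in all, with an adjusted p of 0.133. BID had a log2 ratio of -0.42 and an adjusted p of 0.146, and BCL2A1 0.22 and 0.231. MCL1, BAK1, BCL2L1 and BCL2 had log2 ratios of -0.31, -0.44, -0.24 and 0.26, with adjusted p from 0.325 to 0.832 in the same exact test. The 9 members had a median log2 ratio of -0.24, beside 0.01 over all genes tested, with 4 members higher and 5 lower in replicate 2.

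**Figure D2:**
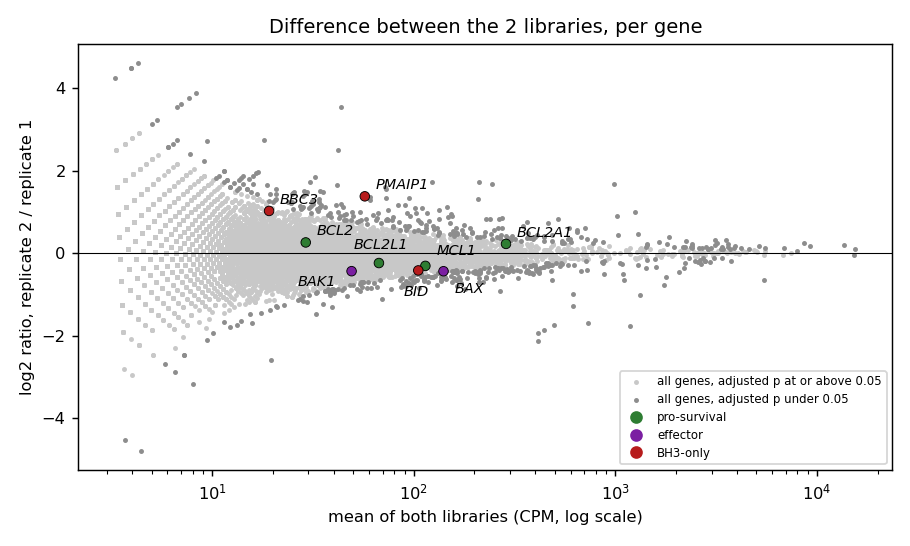
Log2 ratio of replicate 2 to replicate 1 against the mean level (CPM, log axis) for the 10634 genes tested, in light grey, or dark grey where the adjusted p is under 0.05; the 9 tested members are coloured by role. PMAIP1 at 1.38 lies among the dark points, BBC3 at 1.02 is at lower depth, and the other 7 members lie between -0.44 and 0.26.

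The models that carried the reads differed greatly from gene to gene. Known models are those that match an annotated transcript, and incomplete splice matches (ISM) cover consecutive junctions of one but not all of them. NIC models combine annotated splice sites in a way that is not annotated, NNC models have at least 1 splice site that is not annotated, and genomic models are those that overlap a gene without following its splicing. Known models held 55.6% and 52.1% of the family's reads, a mean of 53.9% ± 2.46 (SD, n = 2), beside 56.5% and 46.4% over all annotated genes. Genomic models held 28.5% (340 of 1192 reads) and 33.8% (442 of 1306), beside 10.9% and 15.3% over all annotated genes. ISM models held 8.72% and 8.58%, beside 24.0% and 32.3%. Sums over the family are dominated by its most abundant genes, and the genes are therefore described one by one.

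BCL2A1 was read almost entirely through known models and MCL1 almost entirely through genomic ones. Known models took 92.5% (333 of 360) and 91.4% (427 of 467) of the BCL2A1 reads, and genomic models took 1 and 2 reads. In MCL1, genomic models took 158 of 172 reads (91.9%) and 152 of 154 (98.7%). These lay in 2 single-exon models, ENCODEHT000571206 with 124 reads in each library and ENCODEHT000571228 with 34 and 28. Reads of MCL1 with any splice junction numbered 14 and 2, and no ISM, NIC or NNC model of MCL1 had a read.

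PMAIP1, BCL2 and BCL2L1 were also read largely through genomic models. PMAIP1 had 33 of 43 reads (76.7%) and 101 of 125 (80.8%) in 2 genomic models, of which ENCODEHT000261255 held 28 and 90. The rest, 10 and 24 reads, all belonged to PMAIP1-202. BCL2 had 26 of 36 (72.2%) and 35 of 48 (72.9%) of its reads in genomic models, with 18 and 27 in ENCODEHT000261510. BCL2L1 had 45 of 99 (45.5%) and 67 of 93 (72.0%), of which ENCODEHT000627583 held 44 and 66. In these 4 genes a read without a junction does not show which spliced form of the gene it came from.

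The remaining genes varied. BAK1 had 24 of 77 (31.2%) and 32 of 63 (50.8%) reads in the genomic model ENCODEHT000598791 and 15 and 12 in ISM models. BAX had 36 of 220 (16.4%) and 35 of 180 (19.4%), of which ENCODEHT000523685 held 36 and 34, and BID 14 of 164 (8.54%) and 17 of 136 (12.5%). BBC3 had 0 genomic reads of 17 and of 39, which allows up to 17.6% and 7.69%, but 2 and 17 reads lay in BBC3-206, a known model of 1 exon. BCL2L11 had 3 genomic reads and 1 NNC read in replicate 1 and 1 genomic read in replicate 2, and none in its 25 annotated models. In BAX and BID, ISM models held 19.1% and 22.8%, and 19.5% and 22.1%, mostly as suffix models that keep the 3′ end (30 of 42 and 33 of 41 ISM reads in BAX, 31 of 32 and 29 of 30 in BID).

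**Figure D3:**
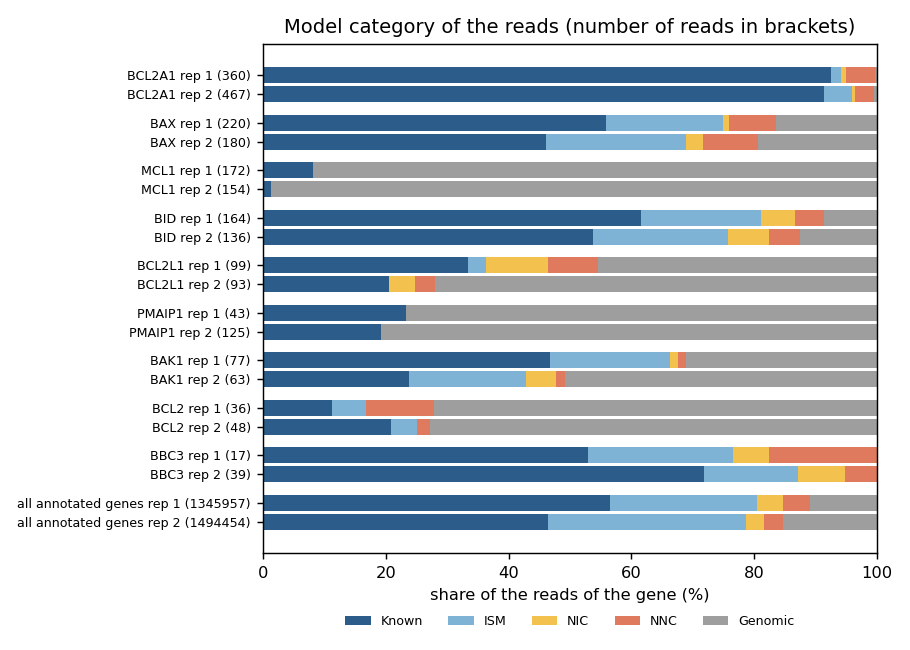
Share of the reads (%) in each model category for 9 genes and for all annotated genes, 1 bar per library, with the number of reads in brackets; BCL2L11, with 4 and 1 reads, is left out. BCL2A1 is almost fully known, MCL1, PMAIP1 and BCL2 are mostly genomic, and the ISM segments of all annotated genes, 24.0% and 32.3%, are wider than those of each member shown in the same library.

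The known share fell in replicate 2 in MCL1 and BAK1. MCL1 went from 8.14% to 1.30% (adjusted p of 0.0275, Fisher's exact test) and BAK1 from 46.8% to 23.8% (adjusted p of 0.0437, Fisher's exact test). These were 2 of the 9 members with at least 20 reads, beside 18.3% of the 8898 genes tested. Both were lower in replicate 2, as were 18.1% of all genes, while 0 members and 0.202% of all genes passed as higher, so the members stood near the background of these libraries. Of the 9 members 7 were lower, passing or not, beside 70.9% of all genes. With genomic models left out of the totals, 0 of 8 members passed (0 also at an unadjusted p under 0.05), beside 16.7% of 7118 genes. MCL1 was untested there for its 16 remaining reads. The BAK1 difference was then -19.5 percentage points with an adjusted p of 0.313 (Fisher's exact test). The median difference was -6.84 percentage points over the members and -7.13 over all genes tested. BCL2L1 went from 33.3% to 20.4%, with an adjusted p of 0.186. When reads with at least 1 junction were compared in place of known reads, a comparison added after the data were seen, BCL2L1 fell from 54.5% to 29.03% (adjusted p of 0.00630, Fisher's exact test) and MCL1 from 8.14% to 1.30% (adjusted p of 0.0351). They were 2 of 9 members, beside 13.2% of the 8898 genes tested. In that comparison BAK1 did not pass (68.8% and 49.2%, adjusted p of 0.124).

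Members with longer last exons tended to have a higher genomic share. BCL2A1, whose longest annotated last exon has 286 bases, had a genomic share of 0.363% over both libraries. BAX (989 bases) had 17.8%, BAK1 (1361 bases) 40% and BCL2L1 (1635 bases) 58.3%. PMAIP1 (1660 bases) had 79.8%, MCL1 (2941 bases) 95.1% and BCL2 (5414 bases) 72.6%. BBC3 (1095 bases, 0%) and BID (1454 bases, 10.3%) lay below the members next to them in length of the last exon. Spearman's rho was 0.833 over the 9 members with at least 20 reads, which share the same libraries, and 0.541 over 8198 protein-coding genes with 2 or more exons; genes are not independent replicates. This relation was looked for after the shares of the members had been seen. The main genomic model was longer than the last exon in PMAIP1 (3216 bases), BAK1 (2918 bases) and BAX (1463 bases), and shorter in MCL1 (919 bases), BCL2 (1260 bases) and BCL2L1 (1584 bases); the table does not say where in the gene these models lie.

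Set among all genes of the same bin of last exon length, MCL1 and PMAIP1 stood highest among the members. The bins are wide, so genes within a bin differ in length. MCL1 lay near the lower end of its bin, and BAK1 and BID near the upper end of theirs. The median genomic share was 1.17% in the 2050 genes with last exons of 21 to 688 bases, 13.8% at 689 to 1466 bases, 35.0% at 1467 to 2794 bases and 54.5% at 2796 to 32994 bases. MCL1 exceeded 92.3% of the genes of its bin and PMAIP1 87.7% of its own, while BCL2 exceeded 65.5%, BCL2L1 68.4%, BAK1 78.7%, BAX 54.3%, BID 47.2%, BCL2A1 41.02% and BBC3 0%. A genomic share of at least 50% was found in 4 of the 9 members and in 26.9% of the 8198 genes. Whether last exon length accounts for these shares was not tested, since other properties of the genes were not held fixed.

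**Figure D4:**
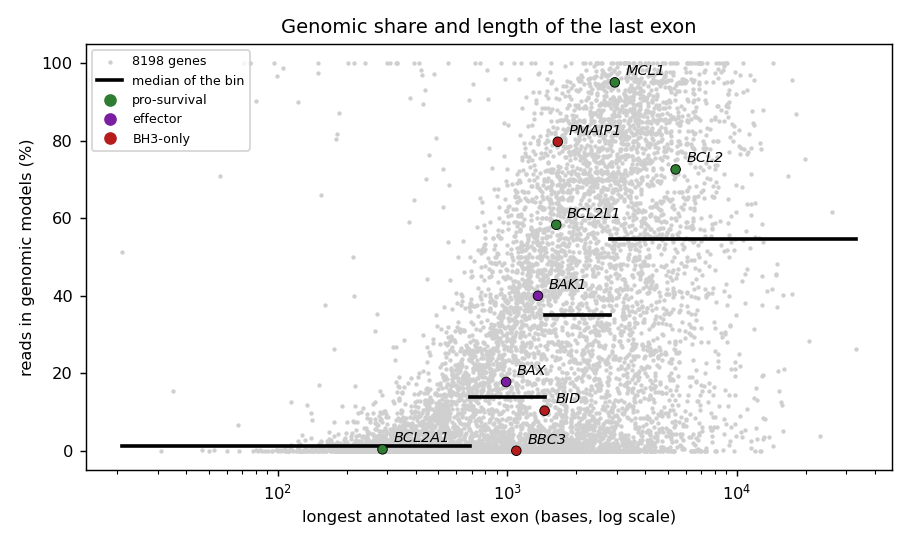
Share of reads in genomic models (%, both libraries summed) against the longest annotated last exon (bases, log axis) for 8198 protein-coding genes with at least 20 reads in grey, with the median of 4 equal bins as black lines and 9 members coloured by role. MCL1 at 95.1% and PMAIP1 at 79.8% lie far above the medians of their bins, 54.5% and 35.0%. BBC3 at 0% lies at the bottom, with 35.7% of its reads in single-exon models that are not genomic.

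Where known models were read, the long or usual coding form led in BCL2A1, BAX, BCL2L1 and BID. BCL2A1-201 took 291 of 333 known reads (87.4%, 95% Wilson interval 83.4 to 90.5%) and 379 of 427 (88.8%, 85.4 to 91.4%), a mean of 88.1% ± 0.970 (SD, n = 2). BCL2A1-202, with the extra exon, took the other 42 and 48. BCL2A1 also had an NNC model of 2 exons, ENCODEHT000404389, with 11 and 9 reads. Both libraries thus put BCL2A1-201 far above BCL2A1-202, and their intervals did not overlap in either.

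BAX was the most varied member, with 39 models, 8 of them known. BAX-202 took 71 of 123 known reads (57.7%, 48.9 to 66.1%) and 43 of 83 (51.8%, 41.2 to 62.2%). BAX-201, which retains the last intron within its coding sequence, took 33 (26.8%, 19.8 to 35.3%) and 17 (20.5%, 13.2 to 30.4%). Retained-intron models with no coding sequence took fewer: BAX-208 had 8 and 13 reads, BAX-210 4 and 5, and BAX-207 3 and 4. Protein-coding models together held 85.4% and 73.5% of the known BAX reads. BAX-202 was above BAX-201 in each library, and their intervals did not overlap in either.

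In BCL2L1 the known reads were mostly of the long form. BCL2L1-203 took 30 of 33 (90.9%, 76.4 to 96.9%) and 16 of 19 (84.2%, 62.4 to 94.5%), and BCL2L1-201, which codes for the same 233 codons, took 2 and 2. BCL2L1-202, the short form, had 1 read in each library, 3.03% (0.537 to 15.3%) and 5.26% (0.935 to 24.6%). With 52 known reads in all, the share of the short form is known only within these wide intervals. The NIC and NNC models held 18 and 7 further reads, and their junctions are not given in the table.

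BID reads were led by BID-215 (195 codons), with 73 of 101 known reads (72.3%, 62.9 to 80.1%) and 52 of 73 (71.2%, 60.0 to 80.3%). BID-203, which codes for 99 codons, took 9 and 4 reads, and BID-201, with a coding sequence of 241 codons, took 6 and 3. BID-204 had 3 in each library. The retained-intron model BID-207 took 9 and 11. Outside the known models, the suffix ISM ENCODEHT000269545 had 19 and 13 reads and the genomic model ENCODEHT000269420 13 and 16.

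The remaining genes had few known reads. MCL1-202, the long, pro-survival form, had 13 reads in replicate 1 and 1 in replicate 2, and MCL1-203, annotated as a processed transcript, had 1 in each. MCL1-201, the form without the second exon, had 0 reads among 14 and 2 known ones, so a difference in its use was not detectable at this depth. BAK1-202 was the one known model of BAK1, with 36 and 15 reads. BCL2-203, the unspliced form, had 3 and 10 reads, and BCL2-202 had 1 and 0. A read of BCL2-203 has no junction and was assigned by position alone. BBC3-203, the main coding model (193 codons), had 6 and 2 reads, BBC3-206 had 2 and 17, and BBC3-205, also a retained-intron model, had 0 and 7. Protein-coding models held 7 of 9 known BBC3 reads in replicate 1 and 4 of 28 in replicate 2.

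**Figure D5:**
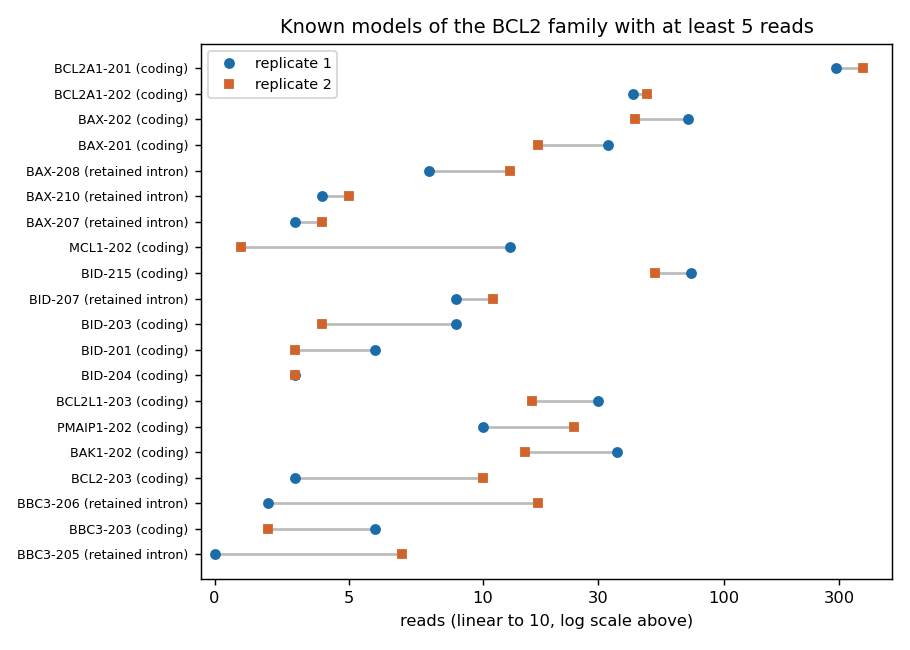
Reads of each known model with at least 5 reads in both libraries together, 1 point per library joined by a line, with the type of the model in brackets; the axis is linear to 10 reads and logarithmic above. BCL2A1-201 leads with 291 and 379 reads, BAX-202, BID-215 and BCL2L1-203 lead their genes, and BBC3-206 moves from 2 to 17.

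The share of the leading known model did not pass the test in any of the 4 members that could be tested, beside 8.9% of 2675 genes that did. The differences of replicate 2 from replicate 1 were 1.37 percentage points in BCL2A1, -5.92 in BAX, -6.70 in BCL2L1 and -1.04 in BID. Their adjusted p ran from 0.871 to 1 in Fisher's exact test, and 0 of the 4 had an unadjusted p under 0.05. At these depths the intervals above leave room for differences well beyond those seen. They were widest for BCL2L1-203, at 76.4 to 96.9% in replicate 1 and 62.4 to 94.5% in replicate 2.

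Of 13 further genes of the BCL2 family, 9 had reads in both libraries, led by BNIP3 at 84.1 CPM ± 13.95 (SD, n = 2), BCL2L12 at 66.9 ± 9.32 and BAD, a BH3-only gene, at 61.5 ± 2.82. BCL2L2, BCL2L15, BOK and HRK had 0 reads in both. The annotated readthrough gene BCL2L2-PABPN1 had 11 and 9 reads, of which 90% over both libraries lay in genomic models and 0% in known models. Of the 8 genes tested, 1 passed: BNIP3L, a mitophagy receptor, was higher in replicate 2, with 15.4 and 43.7 CPM and a log2 ratio of 1.48 (exact binomial test, adjusted p of 0.000709).

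All 9 caspase and apoptosome genes were read. CYCS, which codes for cytochrome c, was the one gene of the 9 to pass, with 229 and 313 CPM and a log2 ratio of 0.45 (exact binomial test, adjusted p of 0.000954). CASP2 had 29.1 CPM ± 4.62 (SD, n = 2), and APAF1, the scaffold of the apoptosome, had 6.62 CPM in each library. Among 7 IAP genes and antagonists none passed; BIRC5 led with 179 CPM ± 0.0436, followed by BIRC3 at 70.0 ± 10.6 and HTRA2 at 62.3 ± 0.193. None of 7 death receptor and adaptor genes passed; CFLAR led with 118 CPM ± 12.4, then FAS at 50.3 ± 4.72 and FADD at 42.1 ± 1.31. VDAC1, VDAC2 and VDAC3, whose proteins sit in the outer mitochondrial membrane, had 375 ± 15.04, 223 ± 23.4 and 204 ± 34.4 CPM, and none of the 3 passed. At an unadjusted p under 0.05 the exact binomial test named 0 of the 7 IAP genes, 1 of the 7 death receptor genes (TNFRSF10A) and 1 of the 3 VDAC genes (VDAC3).

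Genes that overlap or resemble the members had few reads of their own. BAK1P1 and BAK1P2, processed pseudogenes of BAK1, had 0 reads. ABALON, antisense to BCL2L1, and GGNBP1, antisense to BAK1, had 0 as well. ADAMTSL4-AS1, which overlaps MCL1, had 0 and 1, and the miRNA gene MIR3190, opposite BBC3, had 0 and 2. MIR4435-2HG, on the opposite strand of BCL2L11, had 8 and 3 reads, more than BCL2L11 itself.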

How the data were processed

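Direct RNA of GM12878 was measured in 2 libraries of 1 group, replicates 1 and 2 by their titles. The authors deposited raw read counts per transcript model, whole numbers that are not normalized, and the exon number and length of each model as other, non-measured values. Per the submitters' processing notes minimap2 and hg38 were used; the table's name shows TALON, and versions, read filters and annotation are not given in the sources used here. All 23533 known models had the identifier, name, length and exon number of GENCODE release 29, which supplied positions and sequences. The table gives no coordinates for models.

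Gene counts are sums over all models, in CPM of the library total, where 1 read is 0.735 CPM in replicate 1 and 0.662 CPM in replicate 2. With no second group edgeR had no contrast to test. Each gene with at least 10 reads was tested by splitting its reads in the ratio of the library totals (exact binomial test, two-sided), known shares (at least 20 reads) and the leading known model (at least 10 known reads per library) with two-sided Fisher's exact tests. P-values were Benjamini-Hochberg adjusted over all genes tested, with a threshold of 0.05, and 0.5 reads were added for log2 ratios. Intervals are 95% and, like the limit of 3 reads for a count of 0, cover counting error only. The scripts were tested on simulated data. Tools were Python 3.11.15, scipy 1.17.1, edgeR 4.0.16 (TMM factors) and DESeq2 1.42.0 (size factors). The chi-square of the 2 libraries was 3.27 per gene over 10634 genes, above counting error, so they are not copies.

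The members and lists were chosen with earlier results of these data known. Named were all 10 members, their known models with at least 5 reads, up to 3 other models per member, and per list the 3 highest genes, 1 of which is not reported here, and those past the threshold. APAF1, MCL1-203 and other models under 5 reads, genes at 0 reads and those at an unadjusted p were named after their values were seen.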

Additional observations from a re-analysis of the deposited data

How the results depend on the processing

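No paired analysis was possible because each replicate number occurs once, in 1 group. With 1 library left out no test remains, and the pro-survival share lay between 56.0% and 58.3%, the effector share between 18.6% and 24.9% and the BH3-only share between 19.1% and 23.0%. In the binomial test 1 member was called (PMAIP1). With TMM factors, DESeq2 size factors or at least 50 reads, 2 were called, BAX being the second, beside 5.12%, 5.09% and 9.62% of all genes tested. Known models only gave 4 (PMAIP1, BBC3, BCL2A1 and MCL1) among 1042 of 5528 genes (18.8%) in place of 537 of 10634, with the median of all genes at -0.26 in place of 0.01. Leaving out genomic models gave 3 (BCL2A1, MCL1 and BCL2L1), without PMAIP1, beside 8.26% of all genes. Mean levels moved too: MCL1 went from 114 CPM to 10.6 with known models only and 6.56 without genomic ones, each relative to the reads kept, while BCL2A1 went from 287 to 527 and 330, PMAIP1 was 13.5 without genomic models, and BCL2 was 9.85 and 9.21, BCL2L1 35.4 and 32.5, and BAK1 34.5 and 34.003. The known share was called in 2 members, in 1 with at least 10 reads, and in 0 with genomic models left out or with known and ISM models only, settings in which MCL1 was not tested (Fisher's exact test, with 0 and 1 members at an unadjusted p under 0.05). Of all genes tested 18.3% were called, and 14.6% with at least 10 reads. The share was 16.7% with genomic models left out and 23.2% with known and ISM models only. The BCL2L1 difference in known share reversed from -12.9 percentage points to 11.97 and 8.33 under those last 2 settings. With reads of 2 or more exons in place of known reads, an alternative chosen after seeing the data, BBC3 and BCL2 reversed to -34.4 and -13.2. For the leading model, counting all models except genomic ones gave 1362 of 6287 genes (21.7%) in place of 238 of 2675 and 0 of 7 members (2 at an unadjusted p under 0.05), and reversed BCL2L1 to 5.98. The pro-survival share of 57.2% was 62.6% with known models only and 54.9% without genomic ones, and the BH3-only share of 21.1% was 18.2% with known models only. The cause of these changes was not tested. At 4 and 1 reads BCL2L11 was not tested, and at 14 and 2 known reads the forms of MCL1 could not be compared.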
